A study of Mus musculus with 15 samples.

Results

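The genes described here set whether a haematopoietic stem cell (HSC) stays in quiescence or passes through G1: the cyclin-dependent kinase (CDK) inhibitors Cdkn1b, Cdkn1c and Cdkn2c, the D cyclins Ccnd1, Ccnd2 and Ccnd3, the kinases Cdk4 and Cdk6, the E cyclin Ccne1 and the retinoblastoma gene Rb1. They were chosen by name, with earlier results of these data known, and all 10 of the 10 were among the 16154 genes of the count table. RNA was sequenced from HSC of young, aged and NR-treated aged mice, with 5 libraries per group and 1 mouse per library. All mice were C57BL/6 and female by the labels. Young mice were 6 to 12 weeks old and aged mice 20 to 24 months old. The treated aged mice drank nicotinamide riboside (NR), a vitamin B3 form that cells convert to NAD, at 3 mg/ml for 2 months, and the other groups received none. HSC were sorted as Lin-Sca-1+cKit+CD150+CD48- cells, and 20000 to 25000 cells of each mouse gave a 3′ biased library with unique molecular identifiers (UMIs).

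HSC are mostly quiescent, and they enter the cycle when D cyclins bind CDK4 or CDK6 and the active kinase phosphorylates the retinoblastoma protein, which then releases E2F factors that switch on S phase genes. INK4 inhibitors such as the product of Cdkn2c bind CDK4 and CDK6 directly, whereas the CIP/KIP inhibitors encoded by Cdkn1b and Cdkn1c act on assembled cyclin and kinase complexes. Cdkn1c is an imprinted gene that is needed for HSC quiescence in adult mice, and loss of Cdkn2c enlarges the HSC pool and its self-renewal.

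Total counts ranged from 764119 to 13318989 per library, with medians of 2685764 in young, 6007460 in aged and 3162434 in NR-treated aged HSC. Aged replicate 2 was the shallowest library, and 9 of the 10 members had at least 10 counts in every library, the exception being Ccne1. The sort markers Kit, Ly6a (Sca-1) and Slamf1 (CD150) were read in every library. Of 10 HSC markers, 3 were higher with age by edgeR's test, 0 were lower and 7 were not called. Their log2 fold changes with age lay above 0 for 7 and below 0 for 3. With NR against aged HSC, 1 of the 10 was called, lower, and 9 were not. Over all genes, 19.3% were called with age and 8.07% with NR. Ly6a, Slamf1 and Procr were higher in aged than in young HSC, with log2 fold changes of 1.21, 0.84 and 1.27 (adjusted p 0.000113, 0.000373 and 0.000103 in edgeR's quasi-likelihood test), and Slamf1 was lower with NR than in aged HSC (-0.51, adjusted p 0.0288), in the same directions as Cdkn1c. Their part in the differences of the members was not tested. Young replicates 1 and 5 held transcripts of 4 Y-linked genes together with Xist against their female labels, so values without these libraries are given where a call changed. Markers of mature blood cells moved with the groups. Their summed level over the neutrophil and macrophage, B and T cell and erythroid lists was 770 to 11086 CPM in young (median 1467), 8680 to 11330 in aged (median 10621) and 503 to 1336 CPM in NR-treated aged HSC (median 614). With age, 3 of 8 B and T cell, 3 of 8 erythroid and 0 of 10 neutrophil and macrophage markers rose by edgeR's test (0 at an unadjusted p under 0.05, 0 by DESeq2 and 6 by limma-voom for the last list). With NR, 5, 7 and 9 of them fell. Of 6 endothelial and stromal markers, 2 were lower in aged than in young HSC. Levels below are depth-scaled counts (CPM) on library sizes scaled by the trimmed mean of M values (TMM), and a difference was called at an adjusted p under 0.05 in edgeR's quasi-likelihood test over all genes. In bulk samples, fewer cells expressing a gene and less RNA per cell cannot be told apart.

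The first comparison asked how the G1 machinery of HSC differed with age. Aged HSC held more Cdkn2c, Cdkn1c and Ccnd1 and less Ccnd3 than young HSC, and the other 6 members did not pass the test. This is 4 of 10 members called, where 19.3% of all genes tested were called, and the same 4 members had no overlap between the libraries of the groups, where 12.4% of all genes had none. The median log2 fold change of the 10 members was -0.01, next to -0.03 for all genes. Members were called in both directions, 3 higher and 1 lower, where 9.68% and 9.63% of all genes were.

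Among the inhibitors, Cdkn2c, which encodes the INK4 protein p18, rose the most. Its level was 9.83, 13.7, 16.6, 13.4 and 12.1 CPM in young replicates 1 to 5 and 42.3, 16.9, 35.9, 31.1 and 37.6 CPM in aged replicates 1 to 5. Each aged library stood above each young one, although aged replicate 2, which held 13 counts of the gene, came close to the highest young library. The difference was 2.61-fold, a log2 fold change of 1.38 ± 0.21 (SE) with an adjusted p of 0.000118 in edgeR's quasi-likelihood test. It was called in all 15 fits that left out 1 library, with log2 fold changes of 1.29 to 1.49. Young replicate 3, whose 16.6 CPM was the highest young level, also had the most mature cell markers of its group. Of these, neutrophil and macrophage markers summed to 7675 CPM there and 1898 to 3027 CPM in aged libraries, erythroid markers to 2627 against 3185 to 6509 CPM, and B and T cell markers to 785 against 599 to 4375 CPM. The part of mature cells in the differences with age was not tested.

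Cdkn2c lies at chr4:109660876-109667189 on the minus strand (GRCm38, GENCODE M21). Promoter windows of 300 bases, 250 before and 50 after a RefSeq start, cover 2 of its starts. Such windows were available for 6 of the 10 members, in 8 windows. The outer Cdkn2c window has a GC content of 73.3% and 4 GC boxes (GGGCGG on either strand, a site bound by Sp factors), and it lies in an annotated exon. The inner window has a GC content of 44% and no GC box. GC boxes stood in 6 of the 8 member windows and in 35.7% of all 32851 windows. The E2F letters TTTCGCGC or TTTGGCGC, searched on both strands without overlap between the 2 forms, stood in 0 of the 8 member windows and in 0.813% of all windows. The inner sequence is shown because the gene with the largest change has this second start, and the 237 bases before it at chr4:109665373-109665609 (minus strand, GRCm38.p6, RefSeq) are outside the annotated exons of the gene. A 3′ biased library does not tell which start was used.
Cdkn2c inner start: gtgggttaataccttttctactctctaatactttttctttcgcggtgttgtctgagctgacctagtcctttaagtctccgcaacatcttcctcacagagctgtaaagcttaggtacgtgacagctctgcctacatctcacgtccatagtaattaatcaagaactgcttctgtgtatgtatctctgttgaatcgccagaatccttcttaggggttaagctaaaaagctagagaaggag

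The imprinted inhibitor Cdkn1c, which encodes p57, also rose with age. Its level was 78.3, 71.5, 66.9, 54.8 and 70.9 CPM in young replicates 1 to 5 and 121, 136, 122, 109 and 140 CPM in aged replicates 1 to 5. The groups were 30.4 CPM apart at their nearest libraries and varied little within themselves, with a coefficient of variation of 12.7% in young and 10.3% in aged HSC. The log2 fold change was 0.87 ± 0.18 (SE), or 1.82-fold, with an adjusted p of 0.00201 in edgeR's quasi-likelihood test. Every fit that left out 1 library called it. The gene lies at chr7:143458339-143461050 on the minus strand, and its exons, like those of Ccnd2 and Cdk6, share bases with annotated antisense genes. These antisense genes were not found by name in the count table.

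Cdkn1b (chr6:134920401-134925513, plus strand), which encodes p27 and restrains cyclin E complexes, varied more within groups than between them. Its level was 296, 115, 242, 320 and 329 CPM in young replicates 1 to 5 and 246, 187, 352, 215 and 142 CPM in aged replicates 1 to 5. The highest library of a group held 2.86 times the lowest in young and 2.48 times in aged HSC. The log2 fold change was -0.18, with a 95% interval of -0.75 to 0.38 (a normal approximation from the SE, here and below) and an adjusted p of 0.71.

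**Figure D1:**
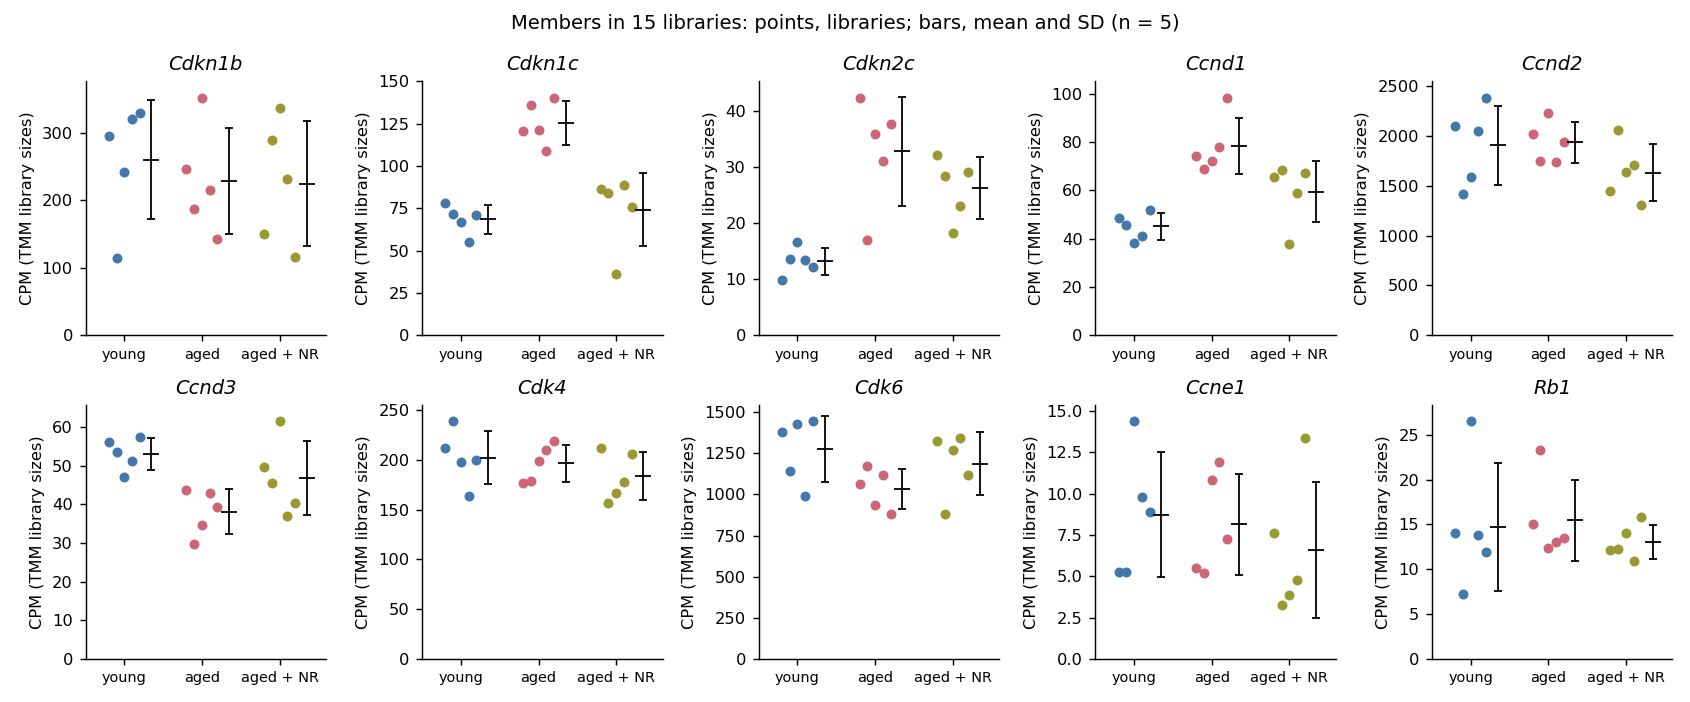
Levels of the 10 members in CPM (TMM library sizes, linear axes from 0) in 5 young, 5 aged and 5 NR-treated aged HSC libraries, as points in replicate order with the mean and SD beside them. Aged libraries stand apart from young ones for Cdkn1c, Cdkn2c, Ccnd1 and Ccnd3, and Cdkn1b spreads from 115 to 329 CPM within the young group alone.

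The D cyclins moved in different directions with age. Ccnd1 was 48.4, 45.8, 38.2, 41.0 and 52.1 CPM in young replicates 1 to 5 and 74.4, 68.8, 72.0, 78.0 and 98.4 CPM in aged replicates 1 to 5. All aged libraries were above all young ones, with a log2 fold change of 0.80 ± 0.15 (SE), or 1.74-fold, and an adjusted p of 0.0012 in edgeR's quasi-likelihood test. The call held in all 15 fits without 1 library. Ccnd1 (chr7:144929931-144939925, minus strand) shares exon bases with a gene on the opposite strand, Oraov1, whose log2 fold change was 0.20 (adjusted p 0.607).

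Ccnd3, the D cyclin best known from lymphoid and erythroid precursors, fell with age. Its level was 56.1, 53.5, 47.2, 51.2 and 57.5 CPM in young replicates 1 to 5 and 43.6, 29.8, 34.6, 42.9 and 39.2 CPM in aged replicates 1 to 5. The lowest young and the highest aged library were 3.51 CPM apart. The log2 fold change of -0.46 ± 0.14 (SE) had an adjusted p of 0.0283 in edgeR's quasi-likelihood test. It did not pass without young replicate 1 (adjusted p 0.0581), young replicate 5 (0.0675), aged replicate 2 (0.0533), aged replicate 3 (0.0791) or aged replicate 5 (0.0543), without both young replicates 1 and 5 (0.15), or with counts thinned to the smallest library (0.443). Bysl, which shares exon bases with Ccnd3 on the opposite strand, had a log2 fold change of -0.10 (adjusted p 0.838).

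The promoter of Ccnd3, which lies at chr17:47505051-47599691 on the plus strand, is shown because it was the only member window with the forkhead letters GTAAACA on either strand, the core bound by FOXO factors, which are active in quiescent HSC. These letters stood in 1 of the 8 member windows and in 3.65% of all windows. The 250 bases before its outer start are chr17:47504801-47505050 (plus strand, GRCm38.p6, RefSeq), with the forkhead letters (read on the minus strand) and the 2 GC boxes in capitals.
Ccnd3 outer start: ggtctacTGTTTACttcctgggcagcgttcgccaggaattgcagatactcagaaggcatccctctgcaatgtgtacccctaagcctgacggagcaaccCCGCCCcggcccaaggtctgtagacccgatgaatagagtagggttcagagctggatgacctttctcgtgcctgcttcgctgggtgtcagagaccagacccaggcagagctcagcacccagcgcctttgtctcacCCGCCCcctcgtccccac

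Ccnd2 (chr6:127125162-127152193, minus strand), a D cyclin that cytokines induce in blood cells, was 1417 to 2387 CPM in young (median 2053) and 1741 to 2228 CPM in aged HSC (median 1945). The log2 fold change was 0.02, with a 95% interval of -0.26 to 0.30. It made up most of the D cyclin counts, with a share of 94.99% ± 0.91 (SD, n = 5) in young and 94.3% ± 0.85 (SD, n = 5) in aged libraries. These are shares of 3′ counts, and differences in capture between genes were not corrected. The share of Ccnd1 was 2.30% ± 0.43 (SD, n = 5) in young and 3.84% ± 0.64 (SD, n = 5) in aged libraries, with every aged library (3.08% or more) above every young one (3.02% or less). That of Ccnd3 was 2.71% ± 0.49 (SD, n = 5) in young and 1.86% ± 0.33 (SD, n = 5) in aged libraries, which met at 2.30% in aged replicate 4 and young replicate 5.

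The member kinases Cdk6 and Cdk4 did not pass the test with age, and neither did the members Ccne1 and Rb1. Cdk6 (chr5:3341485-3531008, plus strand), the partner of D cyclins whose level sets how fast HSC leave quiescence, was 988 to 1445 CPM in young (median 1377) and 883 to 1173 CPM in aged HSC (median 1066). Its log2 fold change of -0.30 ± 0.13 (SE) had an adjusted p of 0.113 in edgeR's quasi-likelihood test. It was called on library totals (-0.42, adjusted p 0.0344) and with at least 10 counts required in every library (-0.37, adjusted p 0.0478). Cdk4 (chr10:127063534-127067920, plus strand), the other D cyclin kinase, was 164 to 239 CPM in young and 177 to 219 CPM in aged HSC, with a log2 fold change of -0.04 and a 95% interval of -0.26 to 0.19. Cdk4 shares exon bases with Tspan31 on the opposite strand, which was read at 3.63 CPM or less in young and aged libraries. Cdk6 took 86.2% ± 2.1 (SD, n = 5) of the counts of both kinases in young and 83.9% ± 2.7 (SD, n = 5) in aged libraries.

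Ccne1 (chr7:38097984-38107534, minus strand), which activates CDK2 late in G1, was read at 5.22 to 14.4 CPM in young and 5.19 to 11.9 CPM in aged HSC, with 4 to 128 counts per aged library. Rb1, the gatekeeper that D cyclin kinases phosphorylate, was 7.23 to 26.5 CPM in young and 12.3 to 23.4 CPM in aged HSC. Their log2 fold changes were -0.02 (95% interval -0.75 to 0.70) for Ccne1 and -0.00 (-0.49 to 0.49) for Rb1, so that the data do not tell a change from none within these limits. Exons of Rb1 (chr14:73183673-73325822, minus strand) share bases with Lpar6 on the opposite strand, which rose from 34.0 ± 8.3 CPM (SD, n = 5) in young to 142 ± 44 CPM (SD, n = 5) in aged HSC by 2.05 on the log2 scale, with an adjusted p of 9.58e-07 in edgeR's quasi-likelihood test. The counting strand is not given in the sources used here.

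**Figure D2:**
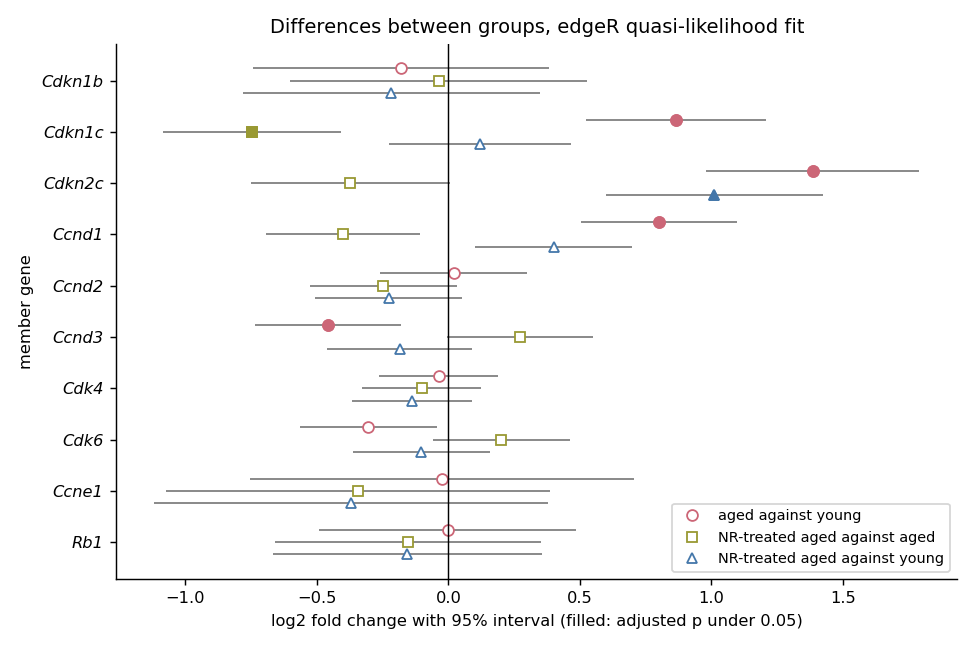
Log2 fold change of each member in the 3 comparisons, with 95% intervals as bars (edgeR quasi-likelihood fit of 15 libraries), where filled symbols passed an adjusted p of 0.05. Circles for aged against young reach 1.38 for Cdkn2c and -0.46 for Ccnd3, the filled square is Cdkn1c at -0.75 and the filled triangle is Cdkn2c at 1.01.

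The second comparison asked how NR changed these genes in aged HSC. Cdkn1c fell, Ccnd1 was lower in every treated library without passing the test, and the remaining 8 members overlapped between the groups. The test called 1 of 10 members, where 8.07% of all genes were called, and 2 of 10 had no overlap between groups, where 8.6% of all genes had none. The median log2 fold change was -0.20 over the members and 0.02 over all genes.

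Cdkn1c was 86.4, 83.8, 36.2, 88.8 and 76.0 CPM in NR-treated replicates 1 to 5, below every aged library (109 CPM or more). The log2 fold change was -0.75 ± 0.17 (SE) with an adjusted p of 0.0152 in edgeR's quasi-likelihood test. Treated replicate 3 was far below the other 4 treated libraries, and without it the value was -0.58 (adjusted p 0.0188). All 15 fits that left out 1 library called it (adjusted p 0.0134 to 0.0424), but counts thinned to the smallest library did not (-0.53, adjusted p 0.152). Mature cell markers were lower in all treated than in all aged libraries, as given above. The part of mature cells in the difference was not tested.

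Ccnd1 was 65.5, 68.3, 37.7, 58.8 and 67.0 CPM in NR-treated replicates 1 to 5. The highest treated library was just under the lowest aged one (68.8 CPM), and the log2 fold change of -0.40 ± 0.15 (SE) had an adjusted p of 0.0985 in edgeR's quasi-likelihood test. Treated replicate 3 was again the lowest, and the value without it was -0.28 (adjusted p 0.223). Cdkn2c was 32.2, 28.3, 18.3, 23.0 and 29.1 CPM in NR-treated replicates 1 to 5, within the range of aged libraries. Its log2 fold change against aged HSC was -0.37, with a 95% interval of -0.75 to 0.01 and an adjusted p of 0.236.

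Ccnd3 spanned 36.9 to 61.5 CPM in NR-treated HSC, with treated replicate 3 the highest of all 15 libraries, and its log2 fold change against aged HSC was 0.27 (95% interval -0.00 to 0.55, adjusted p 0.236). Ccnd2 was 1311 to 2060 CPM (log2 fold change -0.25, adjusted p 0.286) and Cdk6 was 882 to 1346 CPM (0.20, adjusted p 0.357). Cdk4 was 157 to 212 CPM, Ccne1 3.28 to 13.3 CPM and Rb1 11.0 to 15.8 CPM in treated HSC, with log2 fold changes of -0.10, -0.34 and -0.15. Cdkn1b ranged from 116 to 337 CPM in treated HSC, and its log2 fold change of -0.04 had a 95% interval of -0.60 to 0.53. None of these 7 members, nor Cdkn2c or Ccnd1, passed the test against aged HSC.

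The third comparison set NR-treated aged HSC against young HSC, and it shares its libraries with the other comparisons. Cdkn2c was the member called, 1 of 10 where 4.47% of all genes were called, and it was also the member without overlap between groups, 1 of 10 where 4.74% of all genes had none. The lowest treated library (18.3 CPM) stood above the highest young one (16.6 CPM). The log2 fold change was 1.01 ± 0.21 (SE), or 2.02-fold, with an adjusted p of 0.00636 in edgeR's quasi-likelihood test. It was called in all 15 fits without 1 library (adjusted p 0.00195 to 0.0208). It was not called without both young replicates 1 and 5 (0.86, adjusted p 0.0659) or with thinned counts (0.74, adjusted p 0.229). Mature cell markers moved in this comparison too: 5 of 10 neutrophil and macrophage, 2 of 8 B and T cell and 5 of 8 erythroid markers were called lower in treated than in young HSC and 0 higher, with median log2 fold changes of -3.66, -1.95 and -2.68. Their summed level was 503 to 1336 CPM against 770 to 11086 CPM, and their part in the Cdkn2c difference was not tested.

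Cdkn1c had a log2 fold change of 0.12 between NR-treated aged and young HSC, with a 95% interval of -0.23 to 0.46. Ccnd1 had one of 0.40 ± 0.15 (SE) with an adjusted p of 0.157 in edgeR's quasi-likelihood test, which passed only without treated replicate 3 (0.52, adjusted p 0.0286) among the fits that left out 1 library. Treated replicate 3 was below every young library for both genes, at 36.2 CPM of Cdkn1c and 37.7 CPM of Ccnd1. The D cyclin shares of treated libraries were 3.50% ± 0.99 (SD, n = 5) for Ccnd1, 93.8% ± 1.1 (SD, n = 5) for Ccnd2 and 2.74% ± 0.66 (SD, n = 5) for Ccnd3, and all of them overlapped with both other groups.

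**Figure D3:**
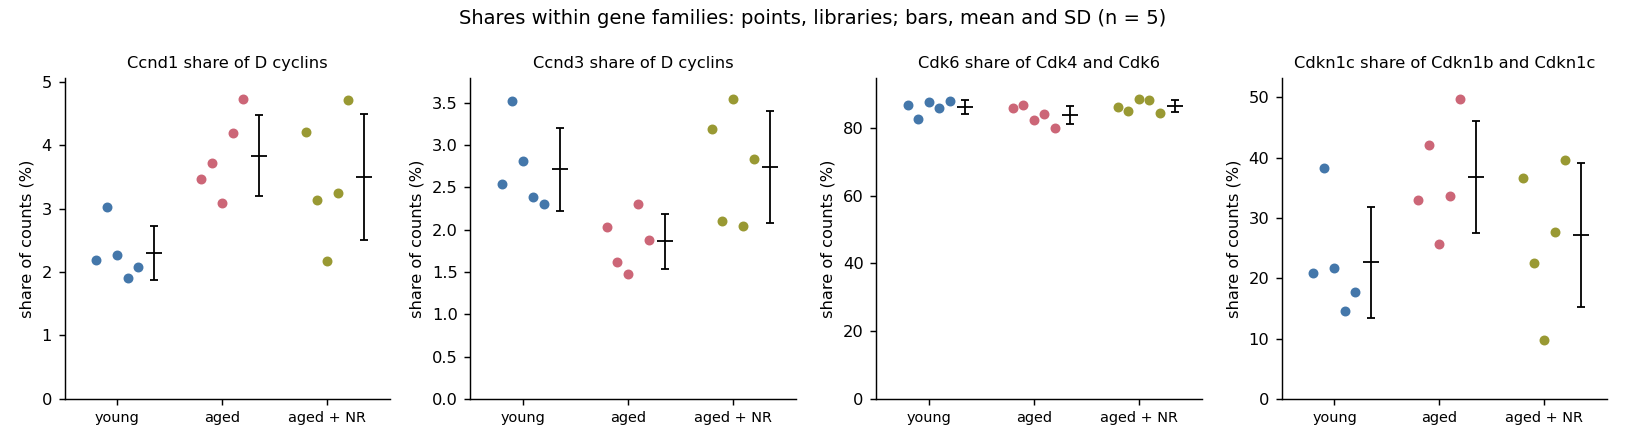
Share of counts (percent, axes from 0) that Ccnd1 and Ccnd3 took of the D cyclins, Cdk6 of both kinases, and Cdkn1c of Cdkn1b and Cdkn1c, per library, with the mean and SD of 5 beside the points. Only the Ccnd1 share of young and aged libraries is without overlap, and the Cdkn1c share runs from 9.7% to 39.7% in the treated group.

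The share of Cdkn1c in the counts of both CIP/KIP members was 22.7% ± 9.2 (SD, n = 5) in young, 36.8% ± 9.3 (SD, n = 5) in aged and 27.2% ± 12.0 (SD, n = 5) in NR-treated aged HSC. Since Cdkn1b counts are in the divisor of this share, a low Cdkn1b level raises it by construction. Young replicate 2, with the lowest Cdkn1b of its group (115 CPM), had the highest Cdkn1c share (38.4%). The lowest Cdkn1b levels of the aged and treated groups, 142 CPM in aged replicate 5 and 116 CPM in treated replicate 5, likewise went with the highest shares, 49.7% and 39.7%.

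**Figure D4:**
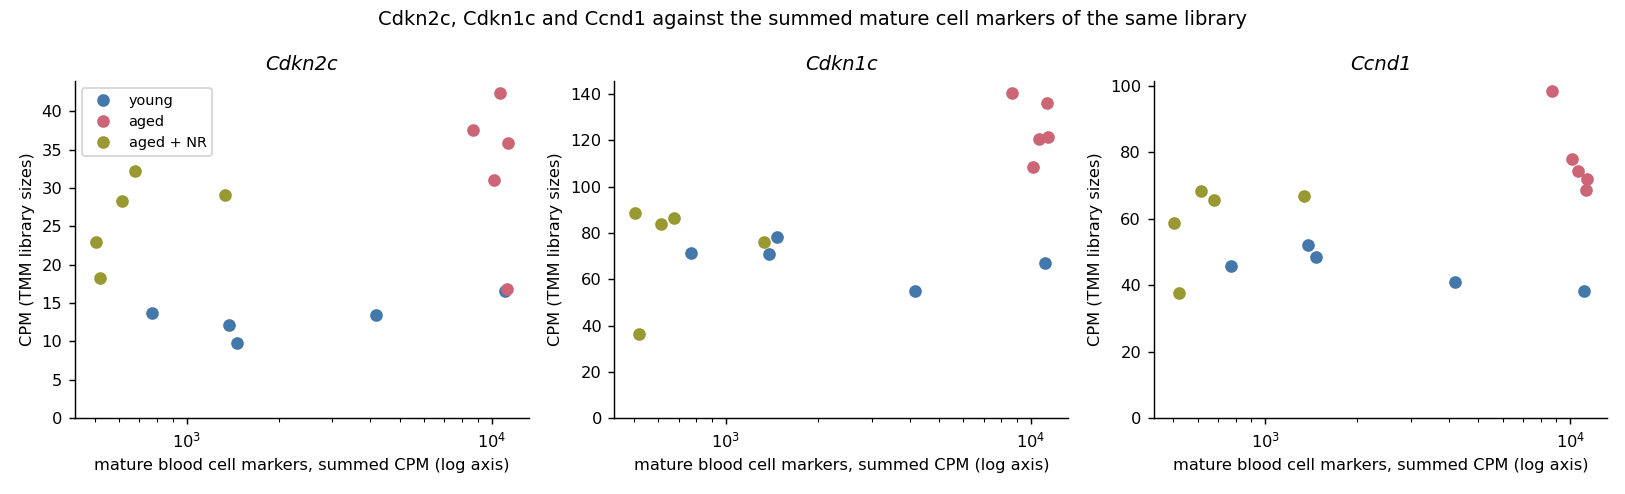
Cdkn2c, Cdkn1c and Ccnd1 (CPM, linear axes from 0) against the summed CPM of mature neutrophil and macrophage, B and T cell and erythroid markers of the same library (log axis), 5 libraries per group. Young replicate 3, at 11086 CPM of markers, has the highest Cdkn2c (16.6 CPM) and the lowest Ccnd1 (38.2 CPM) of the young libraries, and treated libraries with 503 to 1336 CPM of markers hold 18.3 to 32.2 CPM of Cdkn2c.

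The partners of the members in the G1/S pathway were examined from gene lists that, like the members, were chosen with earlier results of these data known. Of the other CDK inhibitors, Cdkn1a and Cdkn2d were in the table and neither was called in any comparison by edgeR, DESeq2 or limma-voom, nor passed an unadjusted p of 0.05. Cdkn1a, the p53 target that encodes p21, was 23.2 to 102 CPM in young, 42.6 to 47.0 CPM in aged and 15.6 to 47.4 CPM in NR-treated HSC. Of the 2 other pocket proteins, Rbl1, which encodes p107 and is itself an E2F target, fell with age from 41.4 ± 7.1 to 23.4 ± 4.2 CPM (SD, n = 5), a log2 fold change of -0.84 with an adjusted p of 0.00197 in edgeR's quasi-likelihood test. Rbl1 in treated HSC was 31.6 ± 6.0 CPM (SD, n = 5), with a log2 fold change of 0.45 against aged HSC (adjusted p 0.105). Rbl2, which encodes the p130 protein of resting cells, was 18.8 ± 3.6, 17.1 ± 3.3 and 18.8 ± 2.4 CPM (SD, n = 5) in young, aged and treated HSC and was not called.

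With age, 19.3% of all genes were called, 9.68% higher and 9.63% lower, which is the share to set beside the list counts here. Of the 10 E2F and DP factors, 1 fell with age and 0 rose. This was E2f1, an activator of S phase genes, at 11.3 ± 4.9 CPM in aged against 25.0 ± 6.8 CPM in young HSC (SD, n = 5), with a log2 fold change of -1.10 and an adjusted p of 0.00442 in edgeR's quasi-likelihood test. With treatment 0 of the 10 were called, with 0 also at an unadjusted p under 0.05, by DESeq2 and by limma-voom. Of the 17 other G1/S kinases, cyclins and their regulators, 3 fell and 1 rose with age. Cdk2, the partner of cyclin E, fell from 128 ± 27 to 78.7 ± 16.7 CPM (SD, n = 5; log2 fold change -0.69, adjusted p 0.022), and Cdc25a, the phosphatase that activates it, fell by 0.91 on the log2 scale (adjusted p 0.00197). The Mediator kinase Cdk8 fell by 0.75 (adjusted p 0.0294), whereas Mycn, a Myc factor expressed in HSC, rose by 1.17 (adjusted p 1.85e-06). Ccne2, the other E cyclin, was not called, at 20.5 ± 6.4 CPM in aged against 27.5 ± 4.9 CPM in young HSC (SD, n = 5).

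In treated against aged HSC, 2 of these 17 genes fell and 1 rose, where 4.18% of all genes were called lower and 3.88% higher. Mycn fell by 0.70 on the log2 scale (adjusted p 0.0037) and the p53 target Ccng1 fell by 0.42 (adjusted p 0.0475), while Cdk8 rose by 1.05 (adjusted p 0.0117). Against young HSC, treated HSC had less Cdc25a (log2 fold change -0.66, adjusted p 0.0418) and more Mycn (0.47, adjusted p 0.0316). The other 15 of the 17 were not called, where 4.47% of all genes were called. Of the 5 subunits of the MuvB core, which binds p130 in quiescent cells, 1 fell with age and 4 were not called. This was Rbbp4, which fell by 0.56 (adjusted p 0.0121), where 9.63% of all genes were called lower.

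The S phase genes called with age were lower in aged HSC. Of the mitosis genes 1 was called, although 15 of 16 had log2 fold changes below 0. Over all genes, 9.63% were called lower with age and 4.18% were called lower with NR against aged HSC. Of 16 S phase genes, 6 fell with age and 0 rose, among them the licensing factor Cdt1 (log2 fold change -1.04, adjusted p 0.00145) and the helicase subunits Mcm3 (-0.71, adjusted p 0.00117) and Mcm4 (-0.65, adjusted p 0.00338). Of 16 G2 and mitosis genes, 1 fell, the spindle motor Kif11 (-0.95, adjusted p 0.0214), and 4 were called by DESeq2. At an unadjusted p under 0.05 in edgeR's quasi-likelihood test there were 8 mitosis and 6 S phase genes with age. The proliferation marker Mki67 was 116 to 390 CPM in young, 51.9 to 193 CPM in aged and 67.4 to 157 CPM in treated HSC, with a log2 fold change of -0.92 with age that had an adjusted p of 0.0552 in edgeR's quasi-likelihood test. Treatment lowered 1 of the 16 S phase genes against aged HSC, the ribonucleotide reductase subunit Rrm2 (-0.93, adjusted p 0.0452), although DESeq2 did not call it. Of the 16 mitosis genes, 0 were called with treatment, with 0 also at an unadjusted p under 0.05, by DESeq2 and by limma-voom. Against young HSC, treated HSC had less Mcm3 (-0.58, adjusted p 0.0139) and Mcm4 (-0.51, adjusted p 0.0386), the 2 S phase genes called, while 0 mitosis genes were called. DESeq2 called 3 S phase genes and 1 mitosis gene. At an unadjusted p under 0.05 in edgeR's quasi-likelihood test there were 8 S phase and 9 mitosis genes. All 16 S phase genes and all 16 mitosis genes had log2 fold changes below 0 in treated against young HSC, with medians of -0.38 and -0.57. With age, 14 and 15 of them were below 0, with medians of -0.20 and -0.43.

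Summed over the 16 S phase genes, young libraries held 1749 to 1948 CPM, aged libraries 1335 to 1728 CPM and treated libraries 908 to 1701 CPM. Both older groups were thus below every young library. The sums of the mitosis genes, 1012 to 1760 CPM in young, 697 to 1225 CPM in aged and 402 to 1089 CPM in treated libraries, overlapped. The library with the lowest sum of either list was treated replicate 2, which also had the lowest Ccne1 (3.28 CPM) and Cdk6 (882 CPM) of its group.

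**Figure D5:**
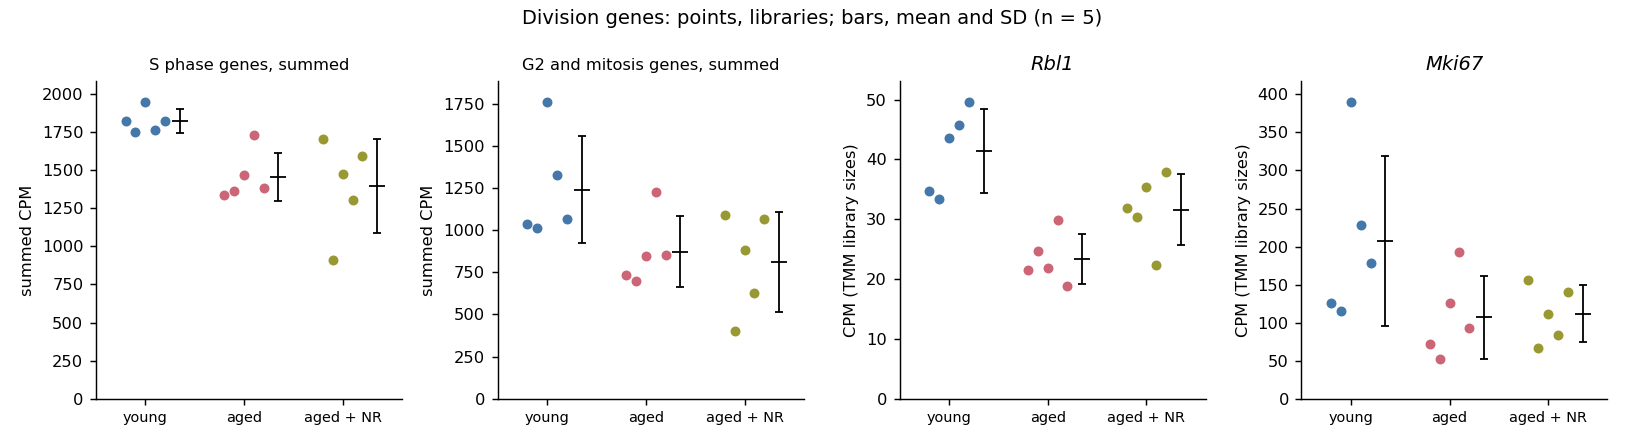
Summed CPM of 16 S phase and 16 G2 and mitosis genes and the CPM of Rbl1 and Mki67 (axes from 0) in 5 libraries per group, with the mean and SD beside the points. S phase sums of aged (1728 or less) and treated libraries (1701 or less) lie below the lowest young library (1749), whereas Mki67 overlaps between the groups.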

How the data were processed

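RNA of sorted HSC was sequenced from 15 mice. According to the methods and the labels, the authors aligned reads with STAR 2.4.2a to GRCm38, removed duplicated UMIs, counted reads on GENCODE exons with featureCounts and deposited unnormalised counts per gene, filtered to 16154 genes. Removal of UMI duplicates leaves about 1 read per molecule, and precision is limited by depth, so that 3 counts or fewer were not told from absence (counting error only). All columns were matched to samples by name, and no library repeated another of its group (chi-square divided by its degrees of freedom was 3.00 to 16.7 over 30 pairs).

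Differences were computed with edgeR 4.0.16 in R 4.3.3: TMM sizes, a single model of the 15 libraries by group, quasi-likelihood tests and p-values adjusted by Benjamini and Hochberg over the whole table, called under 0.05. On simulated data the test recovered 146 of 200 genes changed 2-fold (73%) between aged and young HSC, with 5.81% false calls. Only these 200 of the 16154 genes were changed, drawn from those with a young mean of at least 5 CPM. In the data 3120 genes were called with age, so the share recovered there can differ. Alternatives were the likelihood ratio test, DESeq2 1.42.0, limma 3.58.1 (voom), other scalings and filters, thinning, a replicate block and leaving out libraries. All 10 members are reported. Of each other list, up to 3 called genes per comparison with the largest change and a mean of at least 5 CPM are named, and Cdkn1a, Cdk2, Ccne2, Rbl1, Rbl2 and Mki67 in any case. The members and lists were chosen with earlier results of these data known. Each library came from 1 mouse by the labels. Same-numbered libraries of different groups were not treated as pairs (mean correlation of deviations 0.0042 over 15 pairs). Positions are from GENCODE M21 (GRCm38), a later release than the one counted on, and promoter windows are around RefSeq starts (GRCm38.p6). Other steps used Python 3.11.15.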

Additional observations from a re-analysis of the deposited data

Results flagged for a closer look

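Of 63 sets of 5 libraries (16 genes and 5 family shares in 3 groups), 5 had a library whose gap to its nearest neighbour exceeded 0.71 of the range of its group, a limit that chance passes in about 1 of 20 sets. Cdkn1c was 36.2 CPM in NR-treated replicate 3, where the other treated libraries held 76.0 to 88.8 CPM. The same library had 149 CPM of Cdk2, against 61.5 to 85.6 CPM in the others. Rb1 was 23.4 CPM in aged replicate 2, the shallowest library with 18 counts of the gene, against 12.3 to 15.03 CPM in the others. Cdkn1a was 102 CPM in young replicate 2, against 23.2 to 34.4 CPM. Rbl2 was 14.6 CPM in NR-treated replicate 4, against 18.9 to 20.6 CPM.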

How the results depend on the processing

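The 4 members called with age stayed 4 under the likelihood ratio test, DESeq2, limma-voom, a fit of both groups alone, DESeq2 size factors and the replicate block. They were 5 with library totals or at least 10 counts in every library, where Cdk6 was added, and 3 with thinned counts or without young replicates 1 and 5, where Ccnd3 was lost. Thinning to the smallest total, which leaves fewer counts, gave 0 members with NR against aged and 0 against young HSC, and 0 members remained against young HSC without young replicates 1 and 5. Leaving out 1 library gave 1 to 2 members against young HSC. Over all genes, thinning gave 1523 calls with age, 405 with NR and 400 against young HSC. Without young replicates 1 and 5 there were 1862 calls with age, and the filter on 10 counts, which tests fewer genes, gave 783 with NR. Without 1 library, calls ran from 1953 (without aged replicate 3) to 3533 with age, from 422 (without aged replicate 3) to 1535 with NR and from 452 (without NR-treated replicate 4) to 922 against young HSC. With NR they were 607 without aged replicate 5, 538 without NR-treated replicate 3 and 534 without NR-treated replicate 4.

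The replicate block kept each member call, with 2836 genes called with age, 1048 with NR and 589 against young HSC, while replicate numbers did not pair the libraries (correlations of -0.26 to 0.13). Each change of sign was in a member not called, and its cause was not tested. With age, log2 fold changes crossed 0 for Cdkn1b without young replicates 1 and 5 (0.026), for Ccnd2 with library totals (-0.11), the filter (-0.046) and thinning (-0.00074), for Cdk4 with thinning (0.019), for Ccne1 with limma-voom (0.073) and thinning (0.32), and for Rb1 with limma-voom (0.034), a fit of both groups alone (0.0025) and the replicate block (0.021). Without 1 library they ran from -0.069 to 0.11 for Ccnd2, -0.10 to 0.029 for Cdk4, -0.19 to 0.21 for Ccne1 and -0.17 to 0.30 for Rb1. With NR, Cdkn1b crossed 0 with library totals (0.11) and the filter (0.044) and ran from -0.23 to 0.19 without 1 library, and Cdk4 crossed it with library totals (0.035). Against young HSC, Cdk6 did so without young replicates 1 and 5 (0.0020), and Rb1 ran from -0.32 to 0.14 without 1 library. Family shares moved by less than 1 SD under every alternative tried. Ccne1 could not be fitted under the filter.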

Other observations

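Kcnq1ot1, the long antisense RNA made from the paternal chromosome of the imprinted domain that holds Cdkn1c, was looked up after the values of Cdkn1c were seen. It lies 162 kb from Cdkn1c at chr7:143203458-143296549 (GRCm38, minus strand). Its level was 530 ± 129 CPM in young, 223 ± 99 CPM in aged and 544 ± 122 CPM in NR-treated aged HSC (SD, n = 5). It was lower in all aged than in all young libraries (log2 fold change -1.24, adjusted p 0.0013 in edgeR's quasi-likelihood test) and higher in all treated than in all aged libraries (1.28, adjusted p 0.00564), the opposite direction to Cdkn1c in both comparisons, which share the aged libraries. The relation between the 2 genes was not tested.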
